A study of Mus musculus with 29 samples.

Results

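The genes of the proteasome were followed in the mouse hypothalamus from the first postnatal week to old age. Members were the rows whose symbol starts with Psma, Psmb, Psmc, Psmd, Psme, Psmf or Psmg and a digit, without the immunoproteasome genes Psmb8 and Psmb9 and without symbols ending in -ps, which left 48 of 24499 gene rows. They comprise 14 subunits of the 20S core, 17 subunits of the 19S regulatory particle, 7 assembly factors, 4 activators, the inhibitor Psmf1 and 5 others. The others are Psma8 (a testis form of an alpha subunit), Psmb10 (an immunoproteasome beta subunit), Psmb11 (the thymic beta subunit), Psme2b (a copy of Psme2) and Psmc3ip, a meiotic recombination factor that the symbol rule takes in although it is no subunit. Of the 48 members, 47 passed the filter on low counts. Psmb11 did not: its level, in CPM (gene counts scaled to a common library size), was at most 0.164 in any library.

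The proteasome degrades proteins that carry ubiquitin chains. Its barrel-shaped core holds the proteolytic sites of Psmb5 (chymotrypsin-like), Psmb6 (caspase-like) and Psmb7 (trypsin-like) in inner rings of beta subunits, closed off by outer rings of alpha subunits. The 19S particle caps the barrel with a ring of ATPases (the Psmc genes) that unfold substrates, base subunits without ATPase activity, and a lid with the deubiquitinase Psmd14. The Psme activators are alternative caps, and in neurons proteasomes take part in protein turnover at synapses.

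Libraries were made from the hypothalamus of wild-type C57BL/6 mice labelled as male and housed singly. The youngest were postnatal day 5 (P5) and 3 weeks, with 3 libraries per age. Ages of 4 and 5 weeks had 4 libraries apiece. The adult ages of 2, 6, 12 and 18 months had 3 libraries apiece and that of 24 months had 2, so that 28 of 29 libraries were used. The labels number the libraries within an age and say no more about the mice, so p-values reflect only how much these libraries varied. In RNA of whole tissue, fewer cells of a type and less RNA per cell cannot be told apart.

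Gene counts were 24661631 to 39783779 per library. Some libraries stood apart or went against their labels. P5 replicates 1 and 2 are labelled male but lacked any count of the Y-linked Ddx3y and carried 745 and 816 CPM of Xist, which is expressed from an inactive X, so the comparison with P5 is also given with replicate 3 alone. The third 24-month library had counts for 1385 genes on 2 chromosomes and was left out. Of the hypothalamic markers Otp, Six6, Avp, Oxt, Hcrt and Pmch, all 6 were detected at every age. Their summed level was 43.4 to 174 CPM at 2 months, against 509.5 to 845.5 CPM at 5 weeks, while 4 midbrain and hindbrain markers summed to 26.3 to 43.5 CPM at 2 months, against 3.22 to 3.91 CPM at 5 weeks. The 5-week libraries and 4-week replicates 3 and 4 form a set with a high level of the 7SL RNA copy Rn7s2 (21.2 to 28.9 CPM, against 1.39 to 2.05 CPM at 3 weeks and in 4-week replicates 1 and 2). The 24-month libraries held 61.1 and 61.8 CPM of it, and those of 2 to 18 months at most 5.88 CPM. The 3-week libraries and 4-week replicates 1 and 2 held 33.02 to 45.2 CPM of Bpifa2, and all other used libraries at most 0.0614 CPM. Age and this second set cannot be told apart in comparisons of 3 weeks with P5 or with 6 months. The choroid plexus marker Ttr ran from 1.17 CPM in P5 replicate 1 to 4699 CPM in 12-month replicate 28. It was at 1398 CPM in 5-week replicate 2, against 4.12 to 8.13 CPM in the other 5-week libraries. At 6 months it was at 935 CPM in replicate 32, against 34.3 and 10.9 CPM in replicates 33 and 34. Its part in the members' levels was not tested.

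Promoter sequence is shown for 4 members on which the results turn: Psmc5, the ATPase that changed most between ages, Psmc6, the ATPase that moved the other way after P5, and the catalytic subunits Psmb5 and Psmb6. The sequences are from RefSeq (GRCm38.p6), 5′ to 3′ on the strand of the gene, and lie upstream of the transcription start. Capitals mark TGACNNNGC, the core of the antioxidant response element, found on either strand. Psmc5 had no such match in its window. Psmc6, Psmb5 and Psmb6 are among the 4 subunits of the 20S and 19S particles that had one, so these windows do not stand for the members.
Psmc5, chr11:106255935-106256153, plus strand: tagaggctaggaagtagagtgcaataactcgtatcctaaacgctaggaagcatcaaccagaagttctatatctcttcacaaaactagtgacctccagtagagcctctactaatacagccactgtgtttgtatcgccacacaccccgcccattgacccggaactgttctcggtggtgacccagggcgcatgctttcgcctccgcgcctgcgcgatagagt
Psmc6, chr14:45329574-45329787, plus strand: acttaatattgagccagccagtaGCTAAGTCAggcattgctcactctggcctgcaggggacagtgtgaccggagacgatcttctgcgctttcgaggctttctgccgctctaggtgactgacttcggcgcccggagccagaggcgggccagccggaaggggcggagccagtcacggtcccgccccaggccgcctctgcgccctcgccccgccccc
Psmb5, chr14:54618023-54618245, minus strand: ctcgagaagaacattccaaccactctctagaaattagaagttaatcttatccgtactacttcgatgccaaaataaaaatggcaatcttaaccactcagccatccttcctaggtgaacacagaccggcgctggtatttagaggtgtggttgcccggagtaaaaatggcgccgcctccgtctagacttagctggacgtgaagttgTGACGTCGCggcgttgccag
Psmb6, chr11:70525107-70525356, plus strand: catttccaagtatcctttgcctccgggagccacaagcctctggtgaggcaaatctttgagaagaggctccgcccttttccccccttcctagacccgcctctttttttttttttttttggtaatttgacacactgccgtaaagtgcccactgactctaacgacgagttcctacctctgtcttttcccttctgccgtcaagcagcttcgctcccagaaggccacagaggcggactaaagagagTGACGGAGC

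RefSeq promoter windows were found for 40 of the 48 members, and motifs were searched on both strands in the 250 bases before the start. TGACNNNGC was found in 4 of 25 windows of 20S and 19S subunits (16%), against 13.9% of 12732 windows of tested genes. The CCAAT box was found in 10 of the 25 (40%), against 39.6% of those of tested genes. The core of the interferon-stimulated response element was found in 2 of the 25 (8%), against 3.06% of those of tested genes. These matches describe letters in the window and say nothing of binding.

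Levels of different genes were compared as CPM per kilobase of the principal transcript (RPKM). At 6 months the ATPase Psmc5 had the highest mean level, 162 ± 14.6 RPKM (SD, n = 3). Next came the catalytic Psmb7 at 129 ± 5.303 RPKM, the beta ring subunit Psmb4 at 126 ± 4.21 RPKM and the catalytic Psmb6 at 125 ± 2.61 RPKM, which lie within their spread of each other. The third catalytic subunit, Psmb5, was lower at 55.1 ± 2.43 RPKM. The lowest of the 31 subunits was the lid gene Psmd11, at 14.7 ± 0.934 RPKM. Mean levels of the 7 assembly factors lay between 11.3 RPKM (Psmd9) and 14 RPKM (Psmg4), the highest of them within its spread of Psmd11. The activator Psme4 was at 6.75 ± 0.489 RPKM and the inhibitor Psmf1 at 9.34 ± 0.336 RPKM. Psma8 (0.2402 RPKM) and Psmb11 (0.0148 RPKM) were near 0.

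Over the 9 ages, 36 of the 47 tested members differed (F-test of edgeR, quasi-likelihood, adjusted p below 0.05), or 76.6%, against a background of 76.8% of 16916 tested genes. The 2 shares are close. By role, 9 of 14 core subunits and 15 of 17 subunits of the regulatory particle differed. The 11 that did not pass were Psma2, Psma8, Psmb1, Psmb3, Psmb4, Psmb5, Psmb10, Psmd4, Psmd14, Psme2 and Psmg2.

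The subunits covered a narrow range between ages. The range between the highest and lowest age mean had a median of 0.31 (log2 CPM) for the 31 subunits, against 0.82 for all tested genes and 0.59 for 4627 other tested genes of the same range of levels. It was below 0.5 for 28 of the 31 subunits (90.3%), against 40.7% of those other genes. The gap was smaller without P5: over the 8 ages after it, the median range was 0.25 for the subunits, against 0.32 for the other genes of like level and 0.48 for all tested genes. The exceptions over 9 ages were Psmc5 (1.11), the alpha ring subunit Psma3 (0.63) and the lid subunit Psmd13 (0.52). The deubiquitinase Psmd14 had the smallest range of all tested members (0.12). Outside the 20S and 19S particles, ranges reached 1.40 (Psmc3ip) and 1.23 (the activator Psme1).

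**Figure D1:**
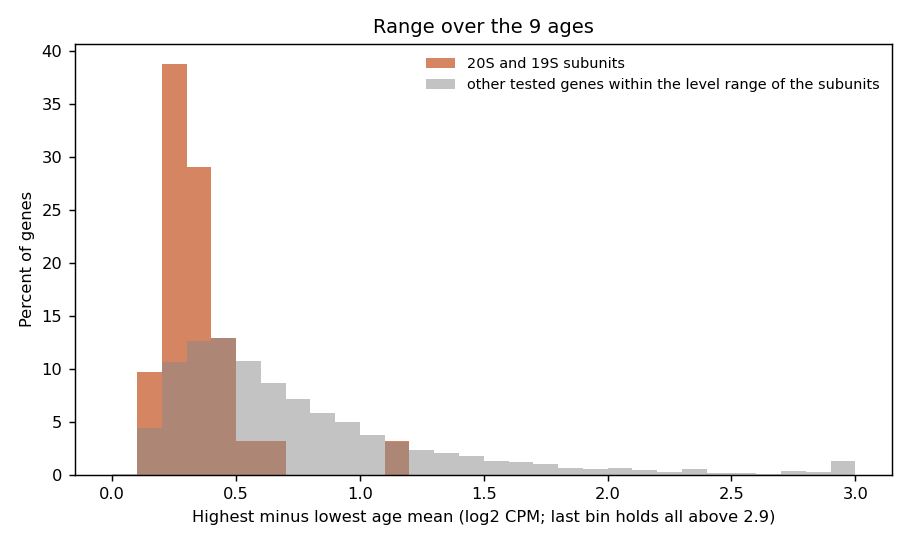
Share of genes (y, percent) by the range of their age means over 9 ages (x, log2 CPM), for the 31 subunits of the 20S and 19S particles and for 4627 other tested genes in the same range of levels. The subunits lie to the left, with a median of 0.31 against 0.59 (0.25 against 0.32 without P5), and the subunit farthest to the right is Psmc5.

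**Figure D2:**
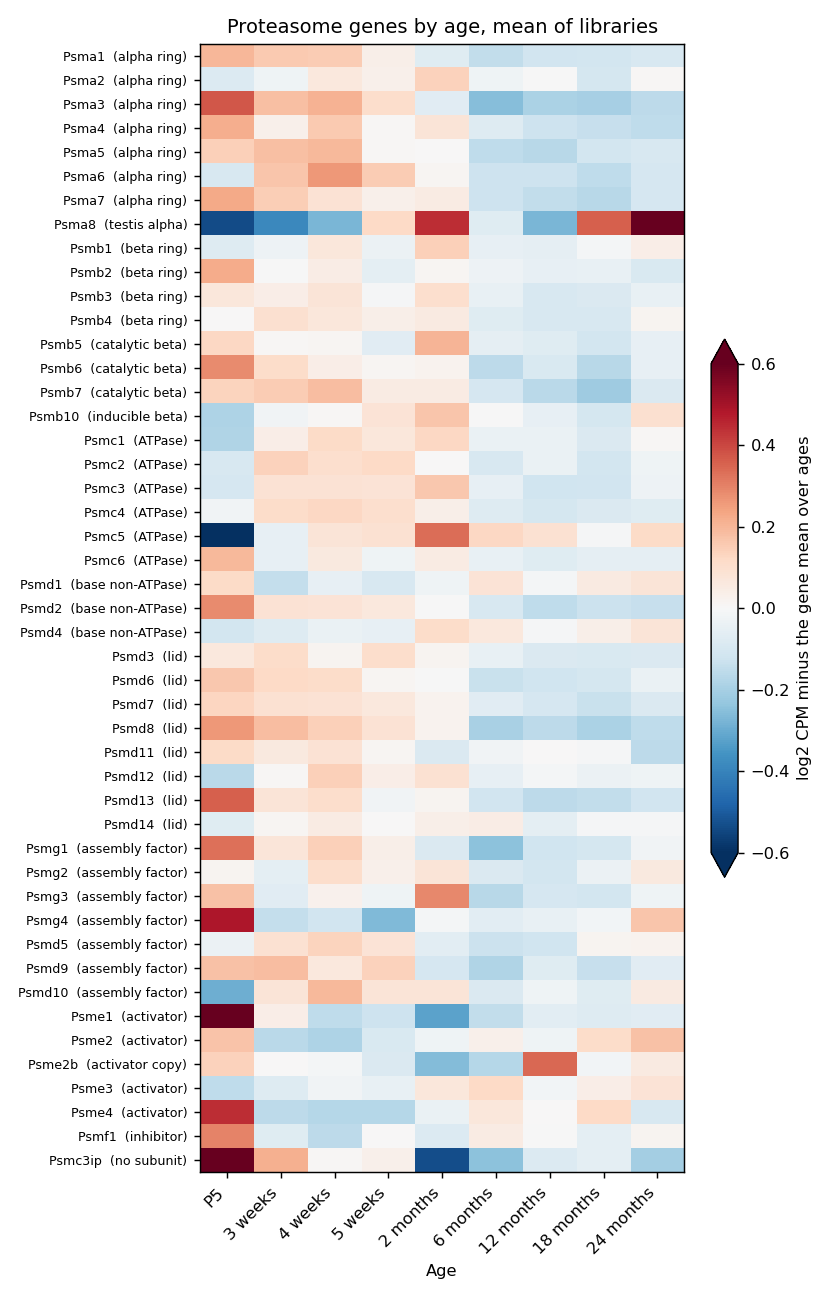
Age mean of log2 CPM minus the gene's mean over the ages (colour, log2 units) for the tested members, in rows by role, with ages from P5 to 24 months in columns. Most rows are pale, and colours saturate at 0.6 in either direction. At P5, Psmc5 and Psma8 are low and Psme1, Psmc3ip, Psmg4 and Psme4 are high.

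The interval between P5 and 3 weeks spans the first postnatal week to weaning. The ATPase Psmc5 rose and the ATPase Psmc6 fell, as did the activators Psme1 and Psme4 and the inhibitor Psmf1. The ATPases Psmc1, Psmc2 and Psmc3 were also called higher, Psmc3 under 2 of 13 other settings. Of 47 members, 7 rose and 12 fell (edgeR quasi-likelihood test, Benjamini-Hochberg adjusted p below 0.05), 40.4% in all, against a background of 59.0% of tested genes (29.8% higher and 29.3% lower). The median absolute log2 fold change of the members was 0.17, against 0.46 for all tested genes. With library totals in place of TMM scaling, 5 rose and 17 fell, and no share of all tested genes is set beside these counts.

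Among the ATPases, Psmc5 (chr11:106256154-106263120, plus strand, GRCm38) had the largest change. Its level was 182.5, 193 and 189 CPM at 3 weeks, against 114, 116 and 111 CPM at P5. All 3-week libraries lay above all P5 libraries, and the log2 fold change was 0.73 ± 0.09 (SE, adjusted p = 2.63e-07). Psmc2 was at 122, 129 and 125 CPM at 3 weeks, against 106, 108 and 106 CPM at P5 (log2 fold change 0.23 ± 0.07, adjusted p = 0.00587), and again the ages did not overlap. Psmc1 rose by 0.22 (SE 0.08, adjusted p = 0.0198) and Psmc3 by 0.19 (SE 0.08, adjusted p = 0.0497). Psmc4 was at 86.3, 93.3 and 86.9 CPM at 3 weeks, against 79.1, 84.2 and 79.7 CPM at P5, also without overlap, but it did not pass the test (0.13 ± 0.07, adjusted p = 0.0958). Psmc6 (chr14:45329788-45349705, plus strand), the sixth ATPase, was at 76.4, 67.6 and 75.3 CPM at 3 weeks, against 87.5, 84.35 and 87.2 CPM at P5. All its 3-week values were the lower ones, and it fell by 0.24 (SE 0.06, adjusted p = 0.000995). Summed over the 6 ATPases, CPM was 803 ± 9.603 at 3 weeks and 671 ± 7.87 at P5 (SD, n = 3 each).

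In the core, 1 of the 14 subunits rose and 2 fell. Psma6, an alpha ring subunit, was at 127, 125.5 and 119 CPM at 3 weeks, against 99.04, 108 and 102 CPM at P5. The ages did not overlap, and it rose by 0.26 (SE 0.07, adjusted p = 0.00207). Psma3, also of the alpha ring, was at 89.35, 88.6 and 92.4 CPM at 3 weeks, against 106, 96.5 and 106 CPM at P5, lower in every 3-week library, and fell by 0.19 (SE 0.06, adjusted p = 0.00586). The beta ring subunit Psmb2 fell by 0.22 (SE 0.08, adjusted p = 0.0174). None of the 3 catalytic subunits passed the test. Psmb5 was at 50.1, 52.1 and 53.1 CPM at 3 weeks, against 57.2, 57.2 and 53.99 CPM at P5 (-0.12 ± 0.11, adjusted p = 0.390). Psmb6 was at 110.0, 128 and 121 CPM at 3 weeks, against 133, 137 and 134 CPM at P5 (-0.17 ± 0.10, adjusted p = 0.147). In both, all 3-week values lay below all P5 values. Psmb7 was at 174.5, 177 and 184 CPM at 3 weeks, against 177, 174 and 178 CPM at P5 (0.02 ± 0.08, adjusted p = 0.860), and the ages overlapped. The alpha ring subunit Psma7 (-0.08 ± 0.09), the inducible Psmb10 (0.17 ± 0.12) and the testis form Psma8 (0.14 ± 0.46) did not pass either.

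Of the 3 base subunits without ATPase activity, the scaffold subunits Psmd1 and Psmd2 fell, by 0.26 (SE 0.06, adjusted p = 0.00138) and 0.20 (SE 0.06, adjusted p = 0.00377). Psmd1 was at 144, 155 and 146 CPM at 3 weeks, against 175, 182 and 175 CPM at P5, with no overlap. The ubiquitin receptor Psmd4 had a log2 fold change of 0.03 ± 0.07 and did not pass. Among 8 lid genes, Psmd13 was at 76.75, 71.3 and 80.4 CPM at 3 weeks, against 88.2, 93.7 and 95.01 CPM at P5. All its 3-week values were lower, and it fell by 0.28 (SE 0.07, adjusted p = 0.000818). Psmd12 rose by 0.17 (SE 0.07, adjusted p = 0.0344). The deubiquitinase Psmd14 was at 66.2, 64.1 and 65.8 CPM at 3 weeks, against 62.5, 63.4 and 59.3 CPM at P5 (0.08 ± 0.07, adjusted p = 0.316), higher in every 3-week library, and did not pass.

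Among the activators, Psme1 (chr14:55578123-55581529, plus strand) encodes the alpha subunit of the PA28 cap. It was at 48.5, 59.85 and 49.6 CPM at 3 weeks, against 97.2, 95.7 and 94.6 CPM at P5. Every 3-week value was below every P5 value, and the log2 fold change was -0.87 ± 0.10 (adjusted p = 5.75e-08). Its partner Psme2 was at 14.1, 17.05 and 16.4 CPM at 3 weeks, against 19.2, 20.6 and 19.9 CPM at P5. Those values did not overlap either, but the change of -0.33 ± 0.17 did not pass the test (adjusted p = 0.0970), and reads of Psme2 and its copy Psme2b may be split between them. Psme4, the PA200 cap, was at 38.8, 35.5 and 37.9 CPM at 3 weeks, against 55.6, 54.6 and 60.2 CPM at P5, without overlap, with a log2 fold change of -0.60 ± 0.09 (adjusted p = 5.72e-06). Psme3, the nuclear PA28 gamma cap, had a log2 fold change of 0.08 ± 0.06 and did not pass. Summed over the 4 activators, CPM was 199 ± 5.46 at 3 weeks and 261 ± 1.298 at P5.

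The inhibitor Psmf1 (PI31) was at 29.5, 35.2 and 33.6 CPM at 3 weeks, against 41.5, 42.6 and 42.4 CPM at P5. All 3-week values were lower, and it fell by 0.36 (SE 0.07, adjusted p = 5.73e-05). Of the assembly factors, the base chaperone Psmd10 (gankyrin) was at 20.6, 20.4 and 20.15 CPM at 3 weeks, against 15.1, 16.9 and 15.4 CPM at P5. It rose by 0.37 (SE 0.09, adjusted p = 0.00153) without overlap. Psmd10 lies on the X chromosome, and P5 replicate 3, the library without Xist, lies between the other P5 values. Psmg1, a chaperone of the alpha ring, was at 14.3, 17.99 and 16.9 CPM at 3 weeks, against 19.6, 19.9 and 18.9 CPM at P5, lower in every 3-week library, and fell by 0.25 (SE 0.09, adjusted p = 0.0165). Psmg4, of the other chaperone pair, was at 6.71, 8.596 and 6.785 CPM at 3 weeks, against 12.1, 12.2 and 9.803 CPM at P5. It fell by 0.63 (SE 0.18, adjusted p = 0.00385), with no overlap. The base chaperone Psmd9 (0.01 ± 0.07) did not pass. Psmc3ip fell by 0.66 (SE 0.24, adjusted p = 0.0187).

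Of these 19 members, 11 were called under each of 13 other settings: Psmc5, Psma6 and Psmd10, which rose, and Psma3, Psmc6, Psmd1, Psmd2, Psmd13, Psme1, Psme4 and Psmf1, which fell. With replicate 3 alone at P5, 3 members rose and 8 fell; in that fit the lone library is assumed to vary like those of the other ages. Called under fewer settings were Psmc3 (2), Psmd12 (5), Psmb2 and Psmc1 (9 each), Psmc3ip (10), Psmg1 (11), Psmc2 and Psmg4 (12 each). There were 4 members higher without 3-week replicate 3 or without P5 replicate 1. Leaving out 1 library left 9182 to 9390 of all tested genes called. Exons of Psmc3, Psmd1, Psmd13, Psme1 and Psmc3ip overlap those of Slc39a13, Htr2b, Sirt3, Emc9 and Mlx, and the strand setting of the counting is not given in the sources used here. Libraries of 31 of 47 members (66.0%) did not overlap, against 67.0% of all tested genes. Cell markers moved over the same interval. All 5 oligodendrocyte markers rose, with a summed level of 17800 to 22340 CPM at 3 weeks, against 194 to 299 CPM at P5. All 5 markers of immature neurons fell (783 to 841 CPM at 3 weeks, against 3930 to 3996 CPM at P5), as did all 5 proliferation markers (16.5 to 24.4 CPM at 3 weeks, against 107 to 143 CPM at P5). Hypothalamic markers summed to 501 to 855 CPM at 3 weeks, against 134 to 197 CPM at P5. For midbrain and hindbrain markers it was 3.52 to 4.17 against 9.145 to 39.1 CPM. For neurons it was 3156 to 3577 against 4600 to 5109 CPM, and for astrocytes 2997 to 3287 against 1070 to 1111 CPM. No marker of these lists was at 0, and the part of these shifts in the members' changes was not tested.

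**Figure D3:**
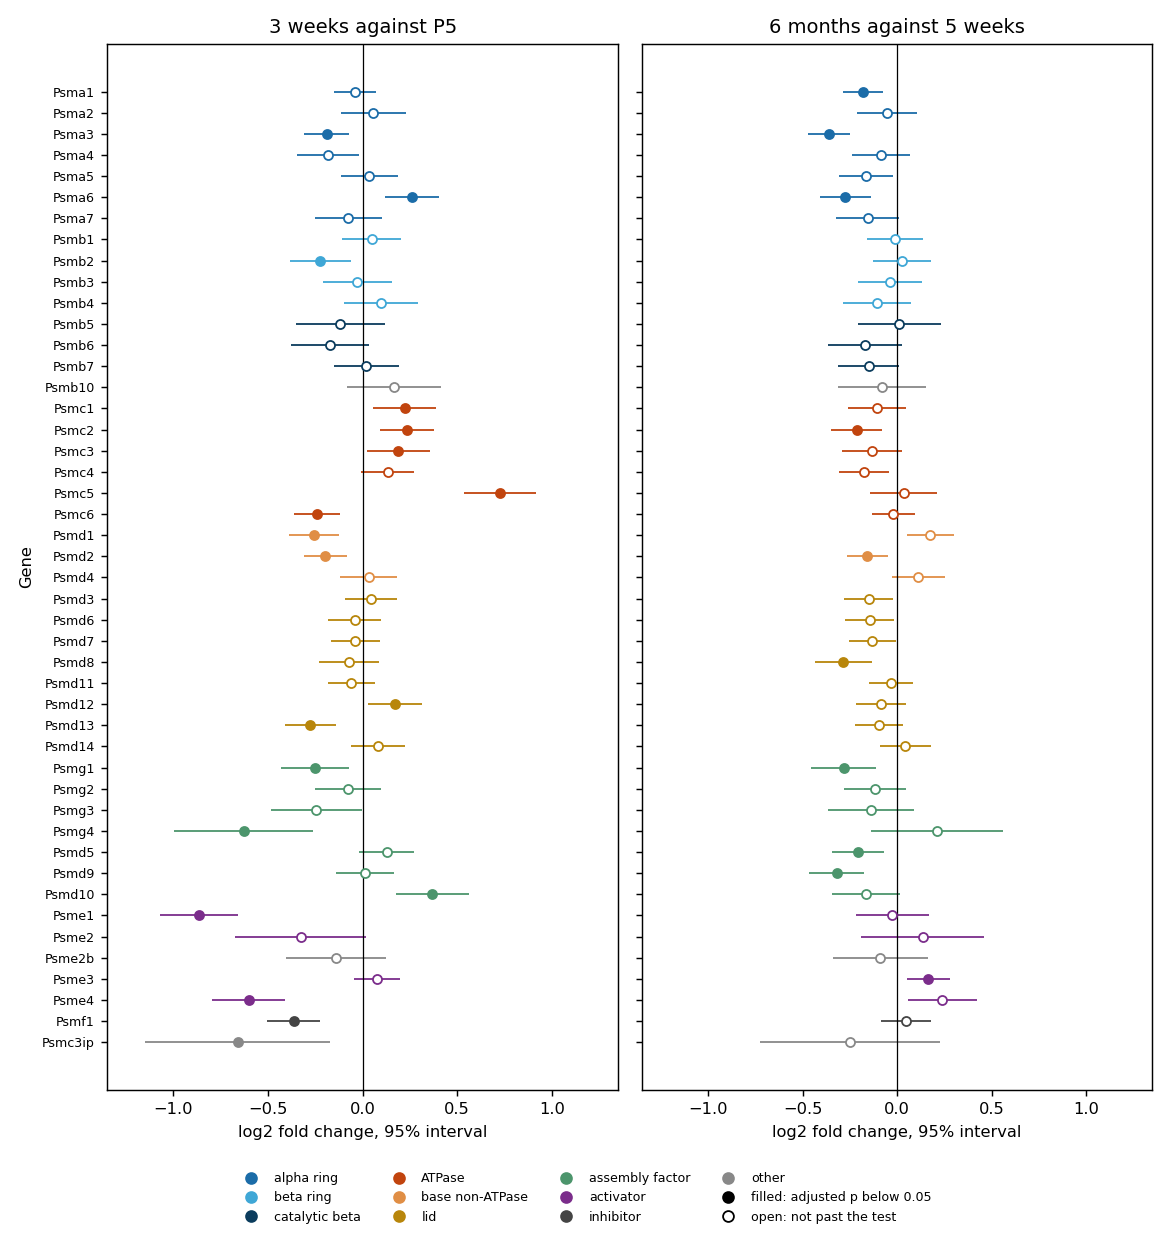
Log2 fold change with its 95% interval (x) of the tested members other than Psma8 (y, by role) for 3 weeks against P5 and for 6 months against 5 weeks. Filled points passed an adjusted p of 0.05. At 3 weeks Psmc5 lies far to the right and Psme1, Psmc3ip, Psmg4 and Psme4 to the left. Most 6-month points lie slightly left of 0.

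**Figure D4:**
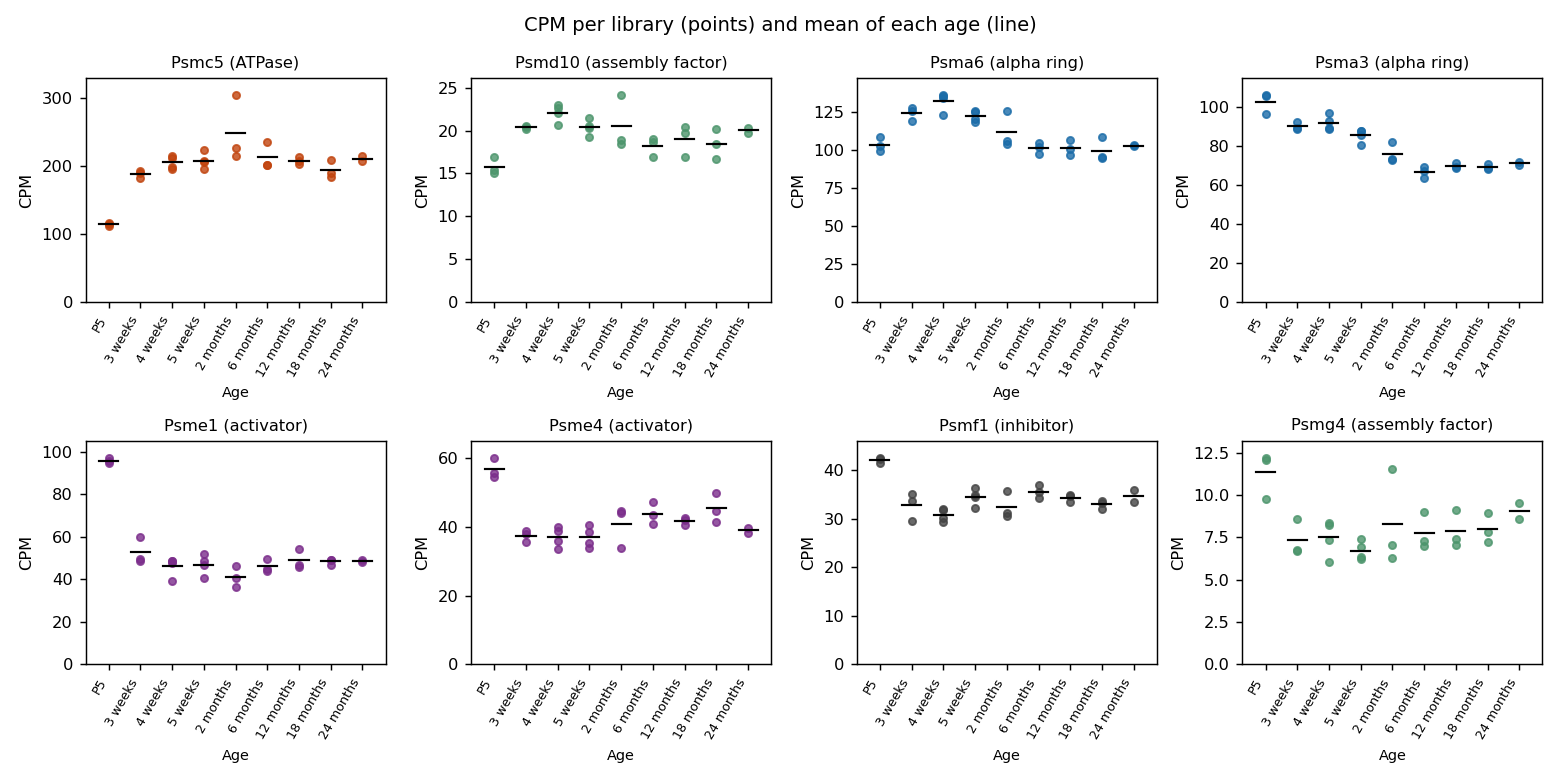
CPM per library (y, points) by age (x, P5 to 24 months) with the mean of each age (line) for 8 members. Psmc5, Psmd10 and Psma6 are lower at P5 than at 3 weeks, and Psme1, Psme4, Psmf1 and Psmg4 are higher at P5.

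Genes that work with the proteasome were taken from a list of 32, of which 31 were in the files. Of these, 14 rose and 9 fell between P5 and 3 weeks, beside the background of 29.8% of tested genes higher and 29.3% lower. Nfe2l1, a transcription factor that drives proteasome genes when proteasome activity is low, was at 408, 433.5 and 411 CPM at 3 weeks, against 274, 274 and 281 CPM at P5. It rose by 0.60 (SE 0.06, adjusted p = 1.41e-08) without overlap. The shuttle factor Rad23b fell by 0.50 (SE 0.06, adjusted p = 7.26e-08). Ufd1l, a partner of the segregase Vcp, rose by 0.42 (SE 0.05, adjusted p = 8.13e-08). The ubiquitin-activating enzyme Uba1 and the proteasome-bound ligase Ube3c fell, by 0.40 (SE 0.05, adjusted p = 1.24e-07) and 0.69 (SE 0.09, adjusted p = 6.6e-07). The assembly chaperone Pomp, the ubiquitin receptor Adrm1 and the polyubiquitin gene Ubb rose, by 0.31 (SE 0.10, adjusted p = 0.00986), 0.42 (SE 0.10, adjusted p = 0.00108) and 0.54 (SE 0.09, adjusted p = 1.45e-05). Psmb8, the inducible counterpart of Psmb5, was at 3.73, 3.25 and 3.15 CPM at 3 weeks, against 1.27, 1.32 and 1.005 CPM at P5 (log2 fold change 1.49 ± 0.19, adjusted p = 3.48e-07). Interferon response markers summed to 38.65 to 52.75 CPM at 3 weeks, against 18.0 to 19.08 CPM at P5. For microglia it was 217 to 250 against 95.9 to 107 CPM. The part of these markers in the level of Psmb8 was not tested.

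Between 3 and 5 weeks no member passed the edgeR test, against a background of 2.15% of tested genes (0.698% higher and 1.45% lower). At an unadjusted p below 0.05 there were 2 members, Psma1 (-0.12 ± 0.05) and Psma5 (-0.17 ± 0.07), beside 1972 of 16916 tested genes. DESeq2 called no member. The log2 fold change was within 0.2 of 0 for 46 of 47 members, and the 95% interval reached a median of 0.15 to either side of the estimate. Psmc5 was at 224, 206, 207 and 195 CPM at 5 weeks, against 182.5, 193 and 189 CPM at 3 weeks (0.14 ± 0.09, adjusted p = 0.570), higher in every 5-week library. Psme1 was at 48.4, 40.5, 51.8 and 46.9 CPM at 5 weeks, against 48.5, 59.85 and 49.6 CPM at 3 weeks (-0.17 ± 0.09, adjusted p = 0.542), and the ages overlapped. With the library set as a term no member passed either.

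At 2 months, 3 members were called higher and 2 lower than at 5 weeks, 10.6% in all, against a background of 16.6% of tested genes (7.13% higher and 9.43% lower). The chaperone Psmg3 was at 17.9, 11.9 and 12.8 CPM at 2 months, against 11.6, 11.25, 10.3 and 11.8 CPM at 5 weeks (log2 fold change 0.34 ± 0.11, adjusted p = 0.0347). Psmc5 was at 305, 215 and 226 CPM at 2 months, against 224, 206, 207 and 195 CPM at 5 weeks (0.26 ± 0.09, adjusted p = 0.0388). Psmb5 was at 80.9, 52.95 and 48.7 CPM at 2 months, against 50.96, 49.4, 47.1 and 48.8 CPM at 5 weeks (0.31 ± 0.11, adjusted p = 0.0479). In all 3 genes the highest value was that of the first library, replicate 11; Psmc5 and Psmb5 overlapped between the ages, and Psmg3 did not. Psmd9 was at 32.96, 29.6 and 30.7 CPM at 2 months, against 36.4, 34.01, 38.8 and 37.6 CPM at 5 weeks, lower in every 2-month library, and fell by 0.24 (SE 0.07, adjusted p = 0.0210). Psma3 fell by 0.17 (SE 0.05, adjusted p = 0.0312).

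These calls depended on single libraries. Without replicate 11, none of the members was called higher and 9 were called lower, and the log2 fold changes of Psmg3, Psmc5 and Psmb5 were 0.13, 0.08 and 0.04. Without replicate 12 or 13, 5 or 4 members were higher and none lower. Leaving out any of the 5-week libraries left 0 or 1 member in each direction, and with only these ages in the fit none was called. Calls among all tested genes numbered 1778 to 2858 over the fits with 1 library left out. The summed CPM of the 31 subunits was 3939 in replicate 11, against 3117 and 3188 in the other 2 libraries of 2 months. From library totals alone it was 3598 in replicate 11. The low hypothalamic and high midbrain and hindbrain marker sums of the 2-month libraries go with this comparison, and their part was not tested. All 5-week libraries belong to the set with a high level of Rn7s2, which was at most 0.397 CPM at 2 months. Age and library set cannot be told apart in this comparison. Of the 31 pathway genes, 2 rose and 7 fell, beside the background of 7.13% of tested genes higher and 9.43% lower. Among them were Fbxo7, which rose by 0.35 (SE 0.08, adjusted p = 0.00532), and Adrm1, which fell by 0.42 (SE 0.10, adjusted p = 0.00433). The pathway calls were not examined with single libraries left out.

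**Figure D5:**
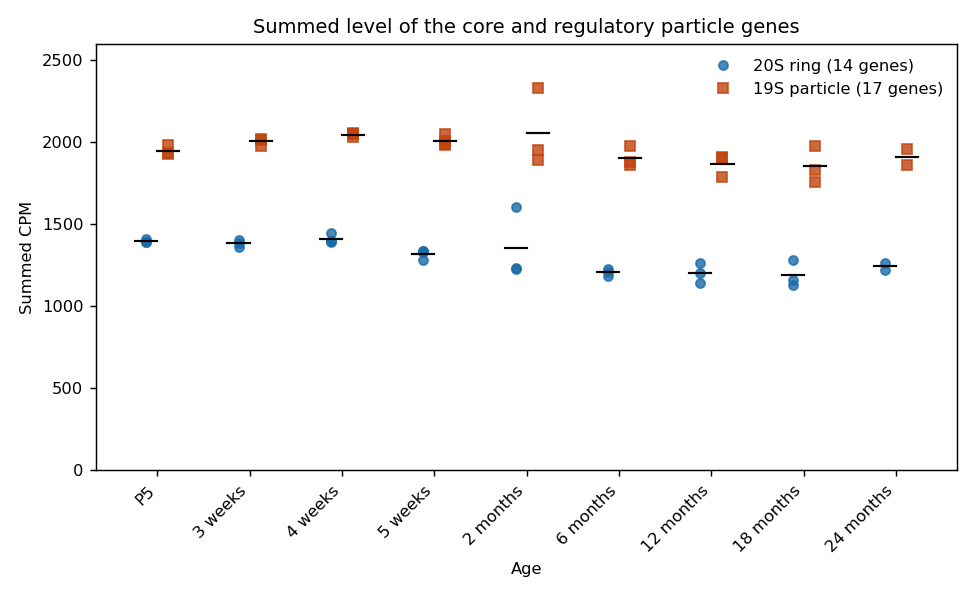
Summed CPM (y) of the 14 core genes and of the 17 genes of the regulatory particle in each library (points) by age (x), with the mean of each age (line). The core sum lies between 1284 and 1447 CPM from P5 to 5 weeks and between 1127 and 1283 CPM from 6 to 24 months; 1 library of 2 months, at 1605 CPM, is the highest.

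At 6 months, 1 member was called higher and 9 lower than at 5 weeks, 21.3% in all, against a background of 13% of tested genes (4.58% higher and 8.39% lower). Those that fell were the alpha ring subunits Psma1, Psma3 and Psma6, the ATPase Psmc2, the base subunit Psmd2, the lid subunit Psmd8 and the assembly factors Psmg1, Psmd5 and Psmd9. The activator Psme3 rose. The median log2 fold change was -0.11 for the members and 0.01 for all tested genes, and 36 members were below 0 and 11 above. With library totals in place of TMM scaling, 2 rose and 7 fell, again without a share of all tested genes beside them.

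Psma3 (chr12:70974621-70996347, plus strand) changed most. It was at 69.3, 66.98 and 63.6 CPM at 6 months, against 87.8, 87.6, 80.7 and 85.8 CPM at 5 weeks (log2 fold change -0.36 ± 0.05, adjusted p = 0.000132). Psma6 was at 101.5, 97 and 104.5 CPM at 6 months, against 126, 120.1, 118 and 124 CPM at 5 weeks (-0.27 ± 0.06, adjusted p = 0.00659). In both, all 6-month values lay below all 5-week values. The chaperone Psmd9 was at 31.3, 28.8 and 28.04 CPM at 6 months, against 36.4, 34.01, 38.8 and 37.6 CPM at 5 weeks (-0.32 ± 0.07, adjusted p = 0.00402). Psmd8 was at 78.1, 76.2 and 79.2 CPM at 6 months, against 99.8, 97.7, 90.6 and 90.97 CPM at 5 weeks (-0.28 ± 0.07, adjusted p = 0.0120). Psmg1 was at 13.3, 12.2 and 13.65 CPM at 6 months, against 16.5, 15.4, 15.15 and 16.6 CPM at 5 weeks (-0.28 ± 0.08, adjusted p = 0.0266). The ages did not overlap in these 3 genes either. Psma1 fell by 0.18 (SE 0.05, adjusted p = 0.0195), Psmc2 by 0.21 (SE 0.07, adjusted p = 0.0328), Psmd5 by 0.21 (SE 0.07, adjusted p = 0.0396) and Psmd2 by 0.16 (SE 0.05, adjusted p = 0.0478). Psme3 was at 104, 106.5 and 111 CPM at 6 months, against 94.1, 96.7, 98.3 and 92.8 CPM at 5 weeks (0.16 ± 0.05, adjusted p = 0.0470), higher in every 6-month library.

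The catalytic subunits did not pass the test. Psmb5 was at 48.5, 52.01 and 47.97 CPM at 6 months, against 50.96, 49.4, 47.1 and 48.8 CPM at 5 weeks (0.01 ± 0.11, adjusted p = 0.956), and the ages overlapped. Psmb6 was at 100.3, 97.03 and 101 CPM at 6 months, against 114, 109, 112 and 112 CPM at 5 weeks (-0.17 ± 0.09, adjusted p = 0.243). Psmb7 was at 147.5, 145 and 157 CPM at 6 months, against 157, 174, 159 and 174 CPM at 5 weeks (-0.15 ± 0.08, adjusted p = 0.214). The 6-month values of Psmb6 and Psmb7 were all below those of 5 weeks. Psme4 was at 40.9, 47.2 and 43.3 CPM at 6 months, against 35.35, 40.6, 33.85 and 38.5 CPM at 5 weeks, higher in every 6-month library, and did not pass (0.24 ± 0.09, adjusted p = 0.0721). Neither did Psme1 (-0.03 ± 0.09), Psme2 (0.14 ± 0.16), Psmf1 (0.05 ± 0.06), Psmc4 (-0.18 ± 0.06), Psma7 (-0.16 ± 0.08), Psma8 (-0.12 ± 0.41), Psmb10 (-0.08 ± 0.11), Psmd4 (0.11 ± 0.07), Psmd10 (-0.16 ± 0.09) and Psmd14 (0.04 ± 0.06).

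Libraries of 27 of 47 members (57.4%) did not overlap between 6 months and 5 weeks, 5 of them higher and 22 lower, against 30.7% of all tested genes. Since all 5-week libraries belong to the set with a high level of Rn7s2, age and library set cannot be told apart in this pair. With 4-week replicates 1 and 2, outside that set, in place of 5 weeks, no member rose and 11 fell, and with 3 weeks in place of 5 weeks 2 rose and 16 fell. These replacements all belong to the set with a high level of Bpifa2 (33.02 to 45.2 CPM, against at most 0.0324 CPM at 6 months). Age and library set cannot be told apart with them either. The background of 13% of tested genes belongs to the fit with 5 weeks, and none is set beside these counts. Among all tested genes, 1292 to 1946 were called when 1 library was left out. Leaving out 1 library left 3 to 7 members lower: 3 without 6-month replicate 33, and 5 without replicate 32, replicate 34 or 5-week replicate 1 or 4. Of these 7 fits, that without 5-week replicate 2 was the one in which Psme3 was called higher. Psma3 and Psma6 were called under each of 14 other settings, Psmd8 and Psmd9 under 13. Psmg1 was called under 10 of them, Psma1 under 9, Psmc2 under 8, Psmd5 under 6, Psme3 under 5 and Psmd2 under 3.

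Cell markers also differed between these ages. Of 5 oligodendrocyte markers 4 fell (7835 to 11450 CPM in sum at 6 months, against 12440 to 16680 CPM at 5 weeks). The summed hypothalamic markers were at 328 to 460 CPM at 6 months, against 509.5 to 845.5 CPM at 5 weeks, without overlap. Of 4 midbrain and hindbrain markers 3 rose (2.896 to 34.8 CPM in sum at 6 months, against 3.22 to 3.91 CPM at 5 weeks). The highest 6-month sum lay far above the median of 5.18 CPM, and the lowest lay below all 5-week sums. Their part in the members' changes was not tested. Of the 31 pathway genes, 2 rose and 3 fell, beside the background of 4.58% of tested genes higher and 8.39% lower. Adrm1, Ubb and Uba1 fell, by 0.42 (SE 0.10, adjusted p = 0.00537), 0.36 (SE 0.08, adjusted p = 0.00574) and 0.14 (SE 0.05, adjusted p = 0.0456). Fbxo7, an interactor of the inhibitor Psmf1, and AI314180, a proteasome scaffold gene, rose by 0.29 (SE 0.08, adjusted p = 0.0203) and 0.21 (SE 0.07, adjusted p = 0.0308). Nfe2l1 and Pomp did not pass (adjusted p = 0.632 and 0.388).

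Between 2 and 6 months 1 member was called, against a background of 3.59% of tested genes (1.77% higher and 1.83% lower). Psmg3 was at 9.83, 9.45 and 11.4 CPM at 6 months, against 17.9, 11.9 and 12.8 CPM at 2 months. The ages did not overlap, and it fell by 0.47 (SE 0.12, adjusted p = 0.0260). Without 2-month replicate 11 no member was called lower, and without replicate 12 or 13 there were 5. Without 6-month replicate 32 or 33 there was none. Calls among all tested genes ran from 51 to 1348 over the fits with 1 library left out.

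Between 6 and 12 months no member passed, against a background of 0% of tested genes by edgeR (1548 genes had an unadjusted p below 0.05, and DESeq2 called 3). Of the members, 2 had an unadjusted p below 0.05. Psme2b was at 11.7, 11.5 and 10.01 CPM at 12 months, against 7.35, 7.93 and 7.89 CPM at 6 months (0.52 ± 0.13, adjusted p = 0.329), with no overlap, and its reads may be shared with Psme2. Its exons also overlap those of 9930111J21Rik1. Psme3 had a log2 fold change of -0.13 ± 0.06. For the mean of 18 and 24 months against the mean of 6 and 12 months, again no member passed, against a background of 0.0296%. At an unadjusted p below 0.05 there were 2, Psmd5 (0.14 ± 0.05) and Psma8 (0.68 ± 0.32), beside 1107 of 16916 tested genes. DESeq2 called no member in either comparison. In the comparison of the oldest ages the log2 fold change was within 0.2 of 0 for 46 of 47 members, and the 95% interval reached a median of 0.12 to either side. The catalytic subunits had log2 fold changes of -0.02 ± 0.09 (Psmb5), 0.02 ± 0.08 (Psmb6) and -0.02 ± 0.06 (Psmb7).

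For the slope per month between 2 and 24 months, none of the 47 members passed, against a background of 7.43% of 16633 tested genes (3.08% higher and 4.35% lower), and DESeq2 called none. At an unadjusted p below 0.05 there were 3 members, beside 4112 of the 16633 tested genes. They were Psma4 and Psmc5 (both -0.01 per month on the log2 scale) and Psme1 (0.01 per month). Slopes were below 0 for all 14 core genes and for 16 of the 17 genes of the regulatory particle, with medians of -0.0044 and -0.0042 log2 units per month, while 5 of the 7 assembly factors had slopes above 0. These signs rest on 2-month replicate 11, which is high at the young end: without it 6 of 14 core genes and 11 of 17 of the regulatory particle were below 0. With library totals, which put the median slope of all genes at 0.0043, it was 7 and 8, and over 6 to 24 months 6 and 8. All 5 oligodendrocyte markers and 3 of 4 midbrain and hindbrain markers fell in the same fit. The summed hypothalamic markers were at 43.4 to 174 CPM at 2 months and at 680 to 1044 CPM at 24 months. The part of these markers in the slopes was not tested. The immunoproteasome genes Psmb8 and Psmb9 rose, by 0.05 (SE 0.01, adjusted p = 0.00631) and 0.05 (SE 0.01, adjusted p = 0.0182) log2 units per month. Psmb8 was at 8.01 and 7.83 CPM at 24 months, against 4.097, 3.76 and 4.29 CPM at 2 months, higher in both old libraries. These 2 slopes were not refitted without 2-month replicate 11. Interferon response markers summed to 65.8 to 66.6 CPM at 24 months, against 45.3 to 54.3 CPM at 2 months. For microglia it was 243 to 261 against 177 to 235 CPM. The part of both lists in the slopes of Psmb8 and Psmb9 was not tested. Psmb10, the third inducible catalytic subunit, had a slope of -0.01 ± 0.01 and did not pass.

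Most subunits varied together across libraries. Pearson's r between a subunit and the mean of the other 20S and 19S subunits over 28 libraries was above 0.5 for 27 of 31, with a median of 0.74. It was 0.93 for the catalytic Psmb7 and the lid subunit Psmd7, and -0.19 for the base subunit Psmd1, -0.10 for Psmc5, 0.06 for Psmd4 and 0.25 for Psmd11. With the subunit mean, r was -0.27 for Psme3, -0.33 for Psme4 and 0.04 for Psmf1. Among genes outside the group, the profiles most like the subunit mean were those of Atp5o, Rbx1, Gemin7, Nudt3 and Adprh, with r of 0.93, 0.93, 0.93, 0.93 and 0.92. These are descriptions over libraries that share ages and scaling. The subunit mean was 6.84 log2 CPM in 2-month replicate 11, against 6.42 to 6.69 in the other libraries, and r was not taken without it. A share of all tested genes with r above 0.5 was not set beside these values.

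The core as a whole had summed CPM of 1399 ± 11.1 at P5, 1383 ± 21.8 at 3 weeks, 1408 ± 26.3 at 4 weeks and 1322 ± 25.3 at 5 weeks (SD, n as above). It was 1355 ± 216.5 at 2 months, 1207 ± 19.5 at 6 months, 1204 ± 59.3 at 12 months, 1189 ± 82.5 at 18 months and 1243 ± 33.5 at 24 months. Libraries of 6 months and later, at 1127 to 1283 CPM, lay below those of P5 to 5 weeks, at 1284 to 1447 CPM. From library totals alone these ranges overlapped, at 1199 to 1313 CPM against 1254 to 1439 CPM. The regulatory particle had 1906 ± 62.9 CPM at 6 months, against 2009 ± 31.5 CPM at 5 weeks and 1948 ± 31.4 CPM at P5.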

How the data were processed

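Total RNA was sequenced as paired-end libraries, per the labels' protocols. The deposited tables hold raw counts of reads per gene symbol, made by the authors with HISAT2 2.1.0 and HTSeq 0.9.1 on GRCm38, per the submitters' processing notes. For annotation and strand setting, the sources used here give nothing. The 5 HTSeq summary lines of each file (26.1% to 32.5% of the entries of a used library) were left out.

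The members and gene lists were chosen with earlier results of these data known. Counts of 28 libraries were fitted in R 4.3.3 with edgeR 4.0.16 (quasi-likelihood, robust, TMM scaling, filterByExpr by age, 1 mean per age; 16916 genes tested), with Benjamini-Hochberg adjustment over all tested genes and a threshold of 0.05. The trend used 14 libraries of 2 to 24 months (16633 genes tested). CPM use TMM-scaled totals; log2 CPM has a prior count of 1. Positions are from GENCODE M21 (GRCm38). Members were named with values if among the 4 called members of smallest p per direction or in a fixed panel; at 3 weeks Psma3, Psmc6, Psmd1 and Psmg4, and at 12 months Psme2b, were added after their values were seen.

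Alternatives were DESeq2 1.42.0, its size factors, library totals, no filter, only the ages compared, a replicate block, the library set as a term, leaving out libraries, P5 replicate 3 alone, all 29 libraries, 18 months alone, log2 of age, 6 to 24 months and, added after seeing the data, 3 weeks or 4-week replicates 1 and 2 in place of 5 weeks. The fit was tested on simulated counts. Equal replicate numbers in the labels were checked, and no pairing of the libraries was seen, though so few libraries cannot exclude it. Some genes of the pathway list are counted but not reported here by name.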

Additional observations from a re-analysis of the deposited data

Results flagged for a closer look

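In groups of 4 libraries, 8 of 98 sets of values held 1 library far from the other 3, and chance marks about 1 in 20 such sets. Of these, 4 are in 4-week replicate 1. Psma2 was at 90.35 CPM there (the others 96.89 to 97.77), Psma6 at 123 CPM (134.2 to 135.9), Psmb5 at 56.18 CPM (50.09 to 50.73) and Psme1 at 39.29 CPM (47.64 to 48.72). In 4-week replicate 2, Psmc3 was at 138.1 CPM (129.1 to 129.4) and the summed core genes at 1447 CPM (1390.0 to 1398.0). In 5-week replicate 1, Psmb4 was at 169.6 CPM (156.5 to 158.6). In 5-week replicate 3 the summed core genes were at 1284 CPM (1330.0 to 1337.0).

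The 24-month library left out of the comparisons above, which enters one alternative with all 29 libraries, held counts for 1 member, Psmd1, with 6031 counts.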

How the results depend on the processing

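Members called at 3 weeks against P5 numbered 7 higher and 12 lower; with P5 replicate 3 alone 3 were higher, and leaving out 1 library gave 4 to 5 higher and 10 to 12 lower. The replicate block gave 7 higher and 15 lower. Same-numbered libraries correlated at 0.042, 0.13 and 0.053 in their deviations for these ages and at -0.12, -0.21 and -0.12 for 5 and 3 weeks. These values show no pairing by number, and with 3 or 4 libraries per age they cannot exclude one. At 2 months against 5 weeks, leaving out 1 library gave 0 to 5 higher and 0 to 9 lower; only these ages in the fit gave 0 and 0, no filter 1 lower, and 3 weeks in place of 5 weeks 5 lower. At 6 months against 5 weeks, leaving out 1 library gave 0 to 1 higher and 3 to 7 lower. Those higher numbered 2 with DESeq2, library totals, only these ages or 3 weeks in place of 5 weeks, and 0 without a filter or with 4-week replicates 1 and 2 in place; 16 were lower with 3 weeks in place. At 6 against 2 months, leaving out 1 library gave 0 to 5 lower, DESeq2 2 and only these ages 0. Over 9 ages 33 to 39 members, and 12270 to 13190 of all tested genes, differed when 1 library was left out. With all 29 libraries 0 members differed. For the slope, library totals gave 1 higher and log2 age 1 higher and 1 lower. The subunits' summed CPM from library totals was 3403 at P5, 3268 at 3 weeks, 3370 at 4 weeks, 3265 at 5 weeks and 3255 at 24 months. In this section no count of all tested genes is set beside those of settings other than leaving out 1 library. The cause of the changes between settings was not tested.

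Directions of log2 fold changes turned for members that did not pass the test. At 3 weeks against P5 library totals gave -0.05704 (Psmb7), -0.04374 (Psmd4), -0.0662 (Psmd9) and -0.0001102 (Psme3), and P5 replicate 3 alone -0.004681 (Psmb7). Leaving out 1 library gave -0.3517 to 0.6937 (Psma8), -0.0049 to 0.03537 (Psmb7), -0.0121 to 0.06467 (Psmd4) and -0.05686 to 0.09059 (Psmd9). At 6 months against 5 weeks, 3 weeks in place gave 0.3199 (Psma8), -0.06407 (Psmb5) and 0.01767 (Psmb10). The 4-week replicates in place gave 0.2137 (Psma8), -0.1083 (Psmb5), -0.009017 (Psmd14) and 0.06679 (Psme1), and library totals 0.01154 (Psme1). Leaving out 1 library gave -0.458 to 0.1416 (Psma8), -0.02611 to 0.0343 (Psmb5) and -0.08933 to 0.02537 (Psme1).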
